A study of Mus musculus with 18 samples.

Results

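The histone deacetylase family was followed here on bead arrays of cultured mouse neurons. The family was selected on a measured value, because the Hdac1 probe was lower on arrays of neurons given homocysteic acid (HCA), and its relatives were then taken by name. The members were 10 genes, Hdac1, Hdac2, Hdac3, Hdac4, Hdac5, Hdac6, Hdac7, Hdac9, Hdac10 and Hdac11. Every probe carrying one of these symbols was included, which gave 14 of the 25697 probes on the array. Hdac5 had 3 probes, Hdac6 and Hdac9 had 2 each, and the other members had 1.

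RNA came from samples labelled cultured neurons, and the labels give no strain, genotype, age or brain region. The 6 groups were untreated neurons, neurons with adaptaquin at 0.1 or 1 µM, neurons with HCA, and neurons with HCA together with adaptaquin at 0.1 or 1 µM. HCA is a glutamate analogue that depletes glutathione, and adaptaquin is an inhibitor of HIF prolyl hydroxylases. Each group had 3 arrays. The array of HCA alone, replicate 3, is called an outlier in its own title and was left out, so that 17 arrays were used and the HCA-only group held 2. Whether replicates came from separate cultures is not said in the labels, and the p-values cover the spread of these samples alone, which could be technical.

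Histone deacetylases remove acetyl groups from lysines of histones and other proteins, and on chromatin this is mostly tied to lower transcription. The class I enzymes Hdac1, Hdac2 and Hdac3 are nuclear and work inside corepressor complexes, Hdac1 and Hdac2 in the SIN3, NuRD and CoREST complexes and Hdac3 with NCoR and SMRT. The class IIa members Hdac4, Hdac5, Hdac7 and Hdac9 bind MEF2 factors and shuttle between nucleus and cytoplasm, in neurons under control of calcium-dependent kinases, while the class IIb enzymes Hdac6 and Hdac10 are largely cytoplasmic and Hdac11 alone makes up class IV.

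The arrays used had upper-quartile intensities from 333 to 563, and on each of them 42.8% to 47.6% of probes were detected, at a detection p-value under 0.01. Normalized values of replicate arrays correlated across probes with r between 0.984 and 0.991. Of 12 neuron markers, 10 were detected, and their mean log2 value lay between 11.01 and 11.32 on all arrays used, while the Snap25 and Nefl probes were detected on 0 arrays. Markers of dividing progenitors (12 of 15) and of astrocytes (9 of 10) were detected as well. In such bulk samples, fewer cells of a type and less RNA per cell cannot be told apart.

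Of the 14 member probes, 12 were detected, each on all 17 arrays, and they stood for 9 genes. Neither probe of Hdac9, a class IIa corepressor, was detected on any array, with smallest detection p-values of 0.0840 and 0.130, so no level is given for it. The other 12 probes were among 12991 that passed the filter and were tested together. All values below are normalized log2 intensities, and a change is a difference of group means on that scale with its standard error. Levels of different probes were not set against each other, since probes differ in how they bind.

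Hdac1, a catalytic subunit of the class I complexes, was the member on which the family was chosen, and its HCA values are a description without a test. In untreated neurons its log2 values were 9.45, 9.49 and 9.48, with 0.1 µM adaptaquin 9.56, 9.47 and 9.63, and with 1 µM adaptaquin 9.54, 9.58 and 9.64. With HCA alone they were 8.95 and 8.64, with HCA and 0.1 µM adaptaquin 8.74, 8.59 and 8.97, and with HCA and 1 µM adaptaquin 9.00, 8.85 and 8.52. All 8 arrays with HCA lay below all 9 arrays without it, at either dose of adaptaquin and without it. On the left-out array titled as outlier Hdac1 read 9.24, between both sets. Among all 12991 probes tested, 2.63% kept these 8 and 9 arrays apart in one direction or the other.

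The change of Hdac1 with HCA was -0.68 ± 0.14 without adaptaquin, which left 62.4% of the untreated level. It was -0.78 ± 0.13 at 0.1 µM adaptaquin (58.1% of the level with that dose alone) and -0.80 ± 0.13 at 1 µM (57.6%). Averaged over the 3 doses it was -0.75 ± 0.077. Before normalization, the Hdac1 intensities were 447 to 763 (median 603) with HCA and 693 to 1114 (median 891) without it, so that the unscaled ranges overlapped and the normalized ones did not.

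Ordered by mean, the Hdac1 level was 9.59 (SD 0.054) with 1 µM adaptaquin, 9.55 (SD 0.084) with 0.1 µM and 9.47 (SD 0.023) untreated. The groups with HCA followed at 8.79 alone (SD 0.22), 8.79 with 1 µM (SD 0.24) and 8.77 with 0.1 µM (SD 0.19). Only the step of 0.68 between untreated neurons and HCA alone parted neighbours in this order, and the arrays of every other pair of neighbours overlapped. The 3 arrays with 1 µM adaptaquin, which are not neighbours of the untreated group in this order, also lay above the 3 untreated ones. The replicate spread of Hdac1 was 0.19 to 0.24 in the HCA groups and 0.023 to 0.084 in the others.

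**Figure D1:**
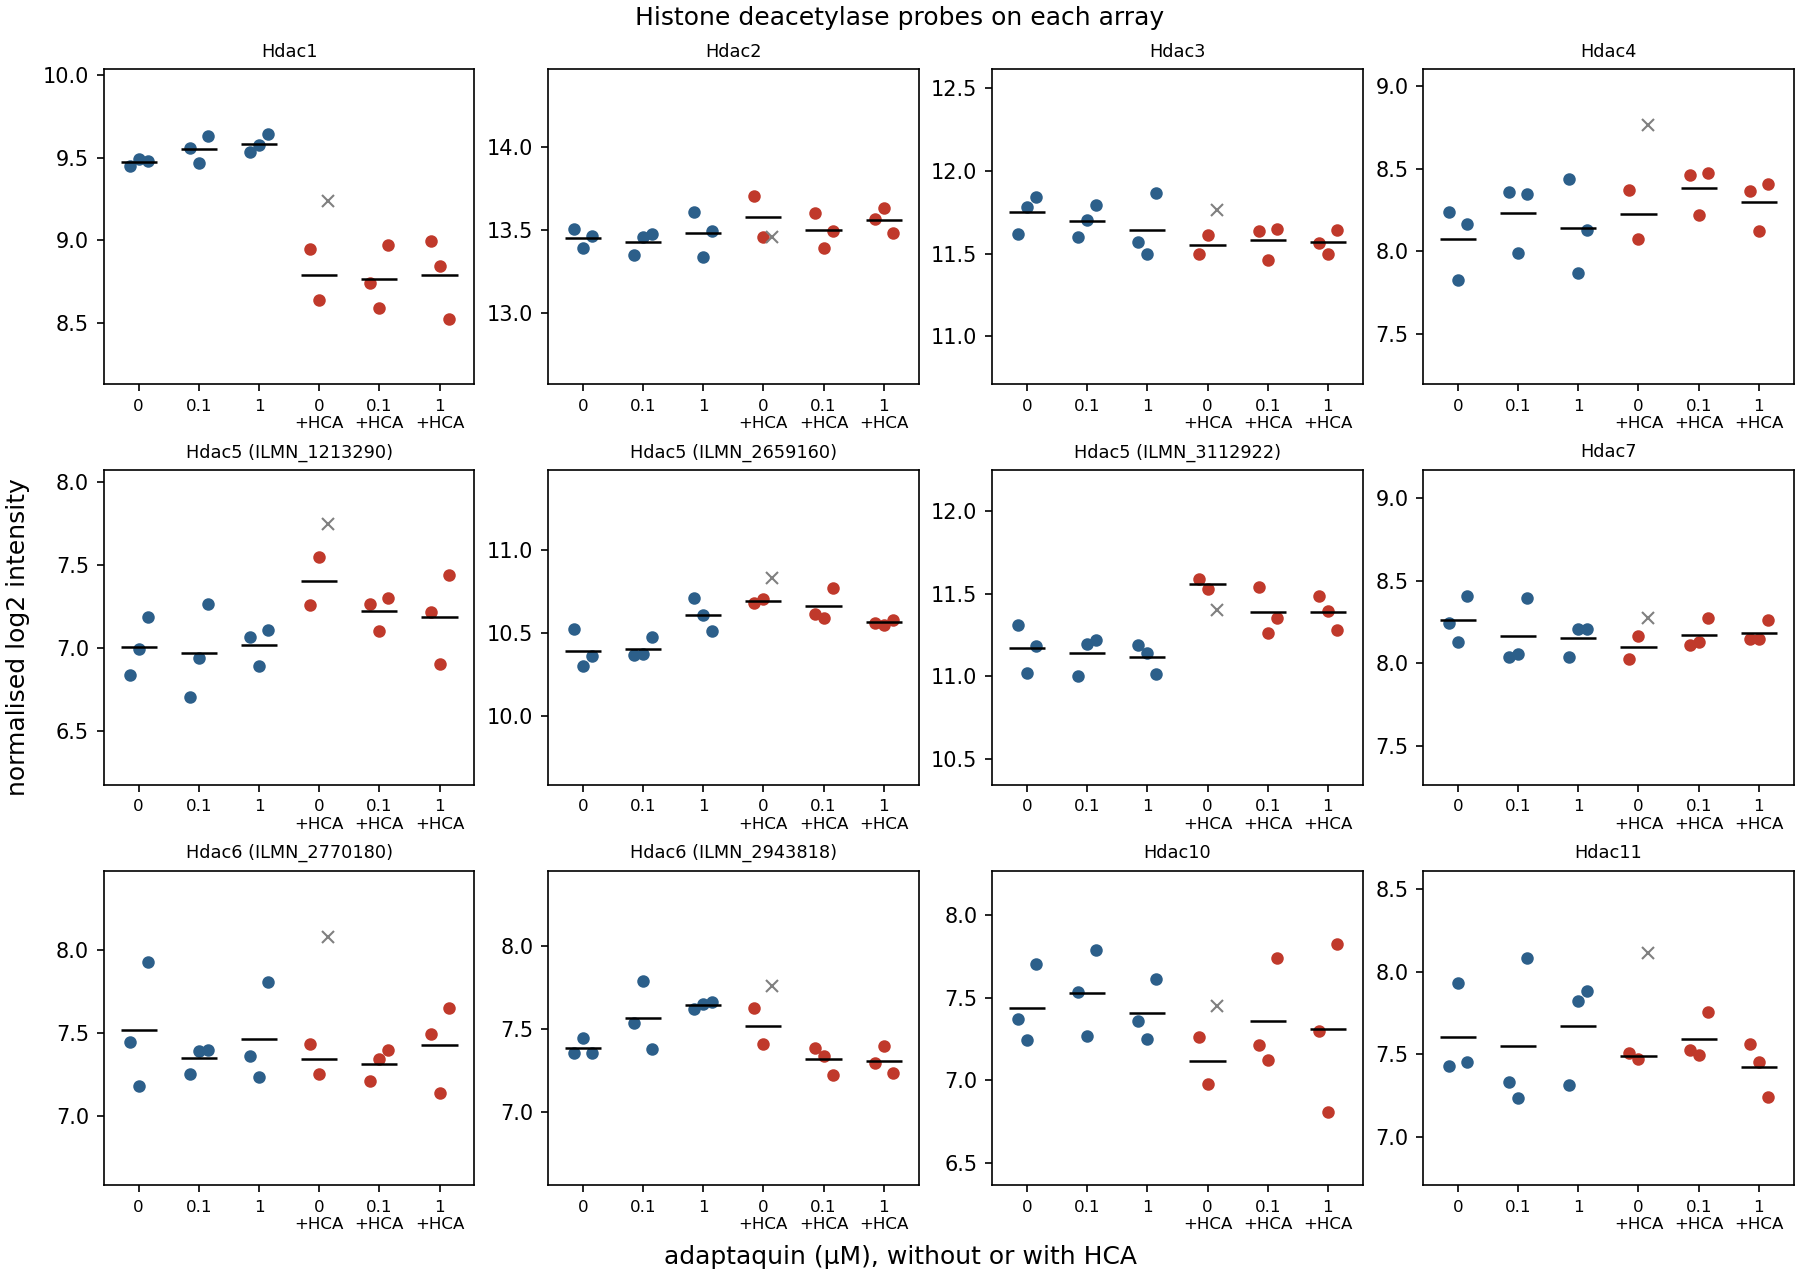
Normalized log2 intensity of each of the 12 detected member probes on every array, by group, with blue circles for arrays without HCA, red circles for arrays with HCA, bars for group means and a grey cross for the array titled as outlier. Every panel spans the same height in log2 units. For Hdac1 the 8 arrays with HCA sit between 8.52 and 9.00 and the 9 arrays without it between 9.45 and 9.64, while for each other probe the red and blue circles overlap.

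Hdac2, the close paralogue of Hdac1 in the same complexes, did not part the arrays by HCA. Its untreated values were 13.51, 13.39 and 13.46, those with 0.1 µM adaptaquin 13.35, 13.46 and 13.48, and those with 1 µM 13.61, 13.34 and 13.50. With HCA they were 13.70 and 13.46 alone, 13.61, 13.39 and 13.49 with 0.1 µM adaptaquin, and 13.57, 13.63 and 13.48 with 1 µM. At every dose the arrays with and without HCA overlapped. The averaged HCA change of Hdac2 was 0.09 ± 0.060 (limma, adjusted p = 0.40), with a 95% interval from -0.04 to 0.22. No test was made between Hdac2 and Hdac1, which was chosen for its fall.

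Hdac3, the catalytic subunit of the NCoR and SMRT complexes, had values of 11.62, 11.78 and 11.84 in untreated neurons and of 11.50 and 11.61 with HCA alone, and over all arrays it lay between 11.46 and 11.87. The untreated arrays lay just above the HCA-only ones, and the groups at both adaptaquin doses overlapped. Its averaged HCA change was -0.13 ± 0.066 (limma, adjusted p = 0.26) and did not pass.

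The counts over the family were as follows. Of the 12 member probes, the fit called 1, Hdac1, for HCA without adaptaquin, where 0.677% of all probes were called. That count was 0 with the array titled as outlier included, and the call held in 4 of the 20 fits that left out arrays. It called the same 1 probe at 0.1 µM adaptaquin (1.26% of all probes) and at 1 µM (0.97%). Averaged over the 3 doses it called 2 of 12 member probes, Hdac1 as lower and an Hdac5 probe as higher, where 9.82% of all probes were called. With the replicate number as a block it called 5 of 12 where 17.8% of all probes were called. Nothing is read from the Hdac1 call, which the choice of the family used, and the average contains the arrays on which the family was chosen. The median averaged change of the 12 member probes was -0.062, against -0.0056 for all probes tested, and 5 of the 12 were positive.

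Among the class IIa genes, Hdac5, a corepressor exported from the nucleus when it is phosphorylated, was the one with a call. Its probe ILMN_3112922 had untreated values of 11.31, 11.02 and 11.19, values of 11.00, 11.20 and 11.22 with 0.1 µM adaptaquin and of 11.19, 11.14 and 11.01 with 1 µM. With HCA it read 11.59 and 11.53 alone, 11.54, 11.26 and 11.35 with 0.1 µM adaptaquin, and 11.48, 11.40 and 11.28 with 1 µM. At each dose every array with HCA lay above every array without it. The pooled ranges met, from 11.26 to 11.59 with HCA and from 11.00 to 11.31 without. The share of all probes parted between single pairs of groups was not counted, here or for other members, so such partings are descriptions. Within every replicate number the arrays with HCA also lay above those without, which held for 2 of 12 member probes in one direction or the other, this one and Hdac1, and for 6.63% of all probes. Hdac1 was chosen for its fall with HCA, so nothing is read from that count of 2.

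The averaged HCA change of this Hdac5 probe was 0.30 ± 0.064 (limma, adjusted p = 0.0080, blocked 0.0044). At single doses it was 0.39 ± 0.12 without adaptaquin, 0.25 ± 0.11 at 0.1 µM (limma, adjusted p = 0.36) and 0.27 ± 0.11 at 1 µM (limma, adjusted p = 0.34), and it was called at none of them. An average over only the 2 adaptaquin doses, added after seeing the data, leaves out the arrays of neurons without adaptaquin. It was 0.26 ± 0.075 for this probe and did not pass (limma, adjusted p = 0.062), but passed with the block (0.028). Of all probes, 5.41% were called in this average without the block and 12.8% with it. The call on the average over 3 doses was also lost without all arrays of replicate number 1 (limma, adjusted p = 0.11), 2 (0.18) or 3 (0.055).

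The other probes of Hdac5 were positive in the same average. Probe ILMN_1213290 changed by 0.27 ± 0.096 (limma, adjusted p = 0.093) and passed with the block (0.013). Its values were 6.83, 6.99 and 7.19 untreated and 7.26 and 7.55 with HCA alone, with ranges of 6.70 to 7.27 over all arrays without HCA and 6.90 to 7.55 over those with it. Probe ILMN_2659160 changed by 0.17 ± 0.053 (limma, adjusted p = 0.060) and passed with the block (0.032). Its values were 10.52, 10.30 and 10.36 untreated and 10.68 and 10.71 with HCA alone, but at 1 µM adaptaquin its HCA change was -0.05 ± 0.089. The 3 Hdac5 probes correlated with one another over the 17 arrays with r of 0.51, 0.57 and 0.63, a description over arrays that share their groups and libraries.

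Hdac4, a class IIa corepressor closely related to Hdac5, had an averaged HCA change of 0.15 ± 0.098 (limma, adjusted p = 0.40), which passed with the replicate block (0.034). Its untreated values were 8.24, 7.83 and 8.16, and with HCA alone they were 8.37 and 8.08. Replicate 2 was the lowest array of Hdac4 in every group, and the groups overlapped. Within replicate numbers 2 and 3 the Hdac4 arrays with HCA lay above those without it, and within number 1 they overlapped. How many of all probes did so within single numbers was not counted. Hdac7, the class IIa member best known from vessels and thymus, had an averaged change of -0.04 ± 0.067 (limma, adjusted p = 0.77) and lay between 8.03 and 8.41 on all arrays.

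Hdac6, the cytoplasmic deacetylase of tubulin, gave different pictures with its 2 probes, which correlated with r = -0.085 over the 17 arrays. Probe ILMN_2943818 had untreated values of 7.35, 7.45 and 7.35, values of 7.53, 7.79 and 7.38 with 0.1 µM adaptaquin and of 7.62, 7.65 and 7.67 with 1 µM. With HCA it read 7.63 and 7.41 alone, 7.39, 7.34 and 7.22 with 0.1 µM adaptaquin, and 7.30, 7.40 and 7.23 with 1 µM. At 1 µM adaptaquin all arrays with HCA lay below those without it, at 0.1 µM the groups overlapped narrowly, and without adaptaquin the HCA arrays reached above the untreated ones.

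The HCA change of that Hdac6 probe was 0.13 ± 0.12 without adaptaquin, -0.25 ± 0.11 at 0.1 µM (limma, adjusted p = 0.35) and -0.34 ± 0.11 at 1 µM (limma, adjusted p = 0.19). The average over all 3 doses was -0.15 ± 0.063 (limma, adjusted p = 0.16). Over the 2 adaptaquin doses, an average added after seeing the data, it was -0.29 ± 0.075, which passed (limma, adjusted p = 0.034, blocked 0.012). That average leaves out the dose at which the change of this probe was positive. In it 2 of 12 member probes were called, this one and Hdac1, on which the family was chosen, and 3 with the block. Of all probes, 5.41% were called in it and 12.8% with the block. The other probe, ILMN_2770180, changed by -0.08 ± 0.11 over the 3 doses (limma, adjusted p = 0.73) and by -0.04 ± 0.13 over the 2 adaptaquin doses (limma, adjusted p = 0.93), so that the 2 probes of Hdac6 disagree in whether a change was called.

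Hdac10, a class IIb enzyme that deacetylates polyamines, had an averaged HCA change of -0.20 ± 0.14 (limma, adjusted p = 0.46). Its replicate 3 was the highest array in all groups with 3 arrays, and its values of 6.81 to 7.82 with HCA spanned those without it, 7.24 to 7.79. Within replicate number 1 Hdac10 was lower with HCA, at 7.21 to 7.30 against 7.36 to 7.54. It was also lower within number 2, at 6.81 to 7.12 against 7.24 to 7.27, and overlapped within number 3. The share of all probes parted within single numbers was not counted. Hdac11, which removes long fatty acyl groups from lysines, had a change of -0.11 ± 0.13 (limma, adjusted p = 0.68) and lay between 7.24 and 8.08 on all arrays.

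**Figure D2:**
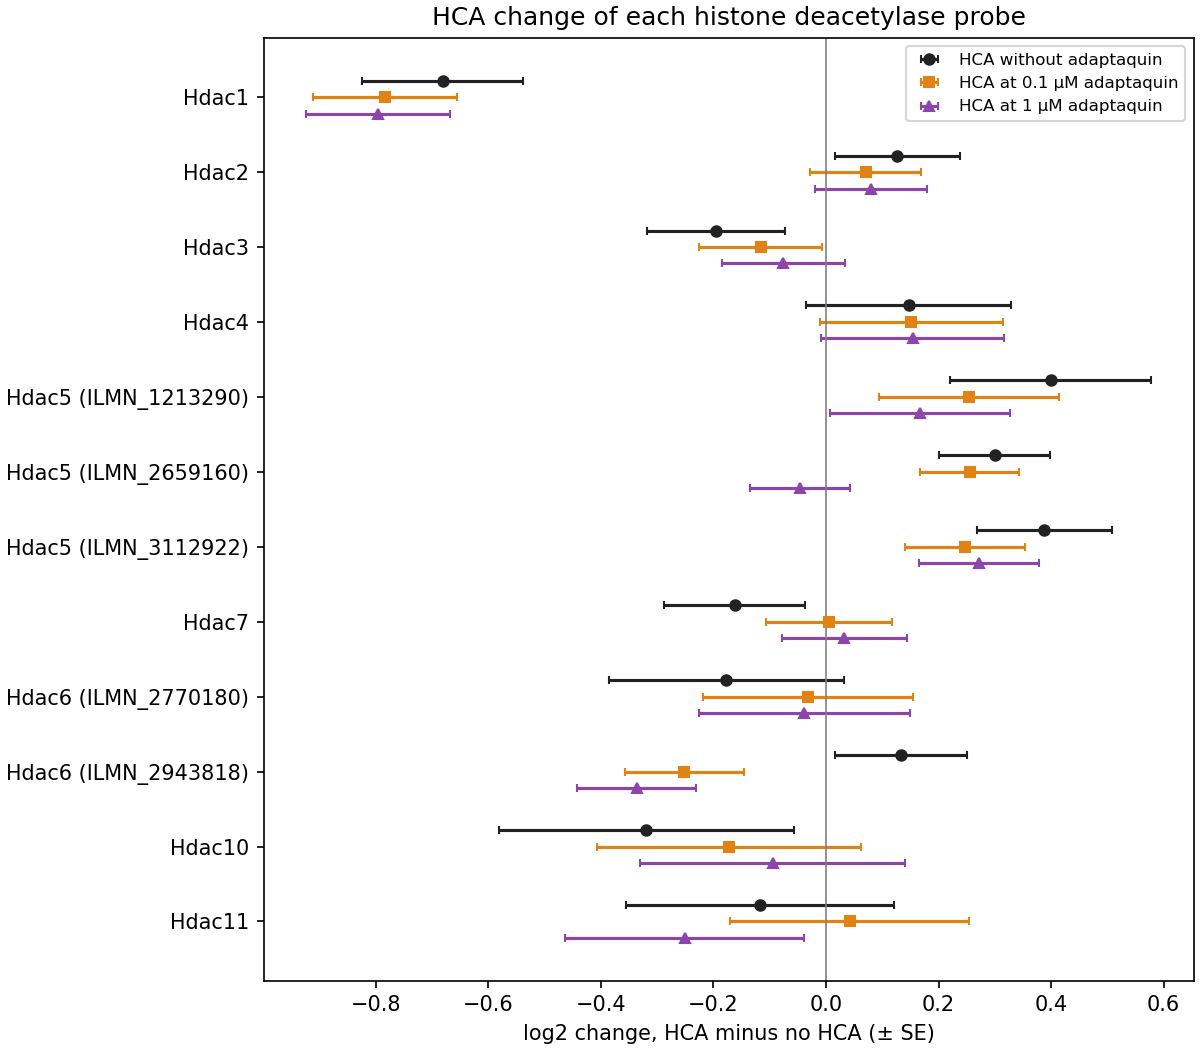
HCA change of each member probe on the log2 scale at 0, 0.1 and 1 µM adaptaquin, as differences of group means with bars of 1 standard error. Hdac1 lies between -0.68 and -0.80 at the 3 doses, and the changes of all other probes lie between -0.34 and 0.40.

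Adaptaquin was compared with its absence, first without HCA. These comparisons share the untreated arrays with the comparison on which the family was chosen. At 0.1 µM, limma called 0 of 12 member probes and 0% of all probes, and 0 member probes had an unadjusted p under 0.05, against 1.09% of all probes. At 1 µM it called 0 member probes, with 0.115% of all probes called, and 2 member probes had an unadjusted p under 0.05 against 2.32% of all probes. Those probes were Hdac6 ILMN_2943818, with a change of 0.26 (interval 0.04 to 0.49), and Hdac5 ILMN_2659160, with 0.22 (interval 0.03 to 0.41), and both had an adjusted p of 1 in limma. The 3 arrays at 1 µM lay above all untreated arrays for Hdac6, at 7.62 to 7.67 against 7.35 to 7.45, and overlapped them for Hdac5, at 10.51 to 10.71 against 10.30 to 10.52.

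For Hdac1 the adaptaquin change without HCA was 0.08 at 0.1 µM, with a 95% interval from -0.19 to 0.35, and 0.11 at 1 µM, with an interval from -0.16 to 0.39. For Hdac2 it was -0.03 (interval -0.24 to 0.19) and 0.03 (interval -0.19 to 0.24). The intervals thus are wide beside these values, and a p that misses the threshold does not show that adaptaquin left these genes as they were. Their width rests on 1 estimate of spread per probe over all 6 groups. For Hdac1 that includes the HCA groups, with an SD of 0.19 to 0.24 against 0.023 to 0.084 in the groups compared here.

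In the presence of HCA, limma called 0 of 12 member probes and 0% of all probes at 0.1 µM adaptaquin, and likewise 0 of 12 and 0% at 1 µM. At an unadjusted p under 0.05 there were 0 member probes at either dose, against 3.73% and 2.97% of all probes. These comparisons share the HCA-only arrays with the comparison on which the family was chosen. The Hdac1 change was -0.02 (interval -0.33 to 0.28) at 0.1 µM and -0.0024 (interval -0.31 to 0.30) at 1 µM, so that its level with HCA was 98.4% and 99.8% of that with HCA alone. The Hdac5 probe ILMN_3112922 had a value of -0.17 at each dose, with intervals from -0.43 to 0.08.

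Whether the HCA change differed with adaptaquin was tested as an interaction. Limma called 0 of 12 member probes and 0% of all probes at 0.1 µM, and again 0 of 12 and 0% at 1 µM. For Hdac1 the interaction was -0.10 (interval -0.51 to 0.31) at 0.1 µM and -0.11 (interval -0.53 to 0.30) at 1 µM. Each interaction subtracts the HCA change without adaptaquin, the comparison on which the family was chosen, so these Hdac1 values are descriptions. At an unadjusted p under 0.05 there was 1 member probe at 0.1 µM, against 2.12% of all probes, and 2 at 1 µM, against 2.06%. Hdac6 ILMN_2943818 was the probe at both doses, at -0.38 (interval -0.72 to -0.05) and -0.47 (interval -0.81 to -0.13). Hdac5 ILMN_2659160 joined it at 1 µM, at -0.35 (interval -0.63 to -0.06). Their adjusted p was 1.00 in limma.

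**Figure D3:**
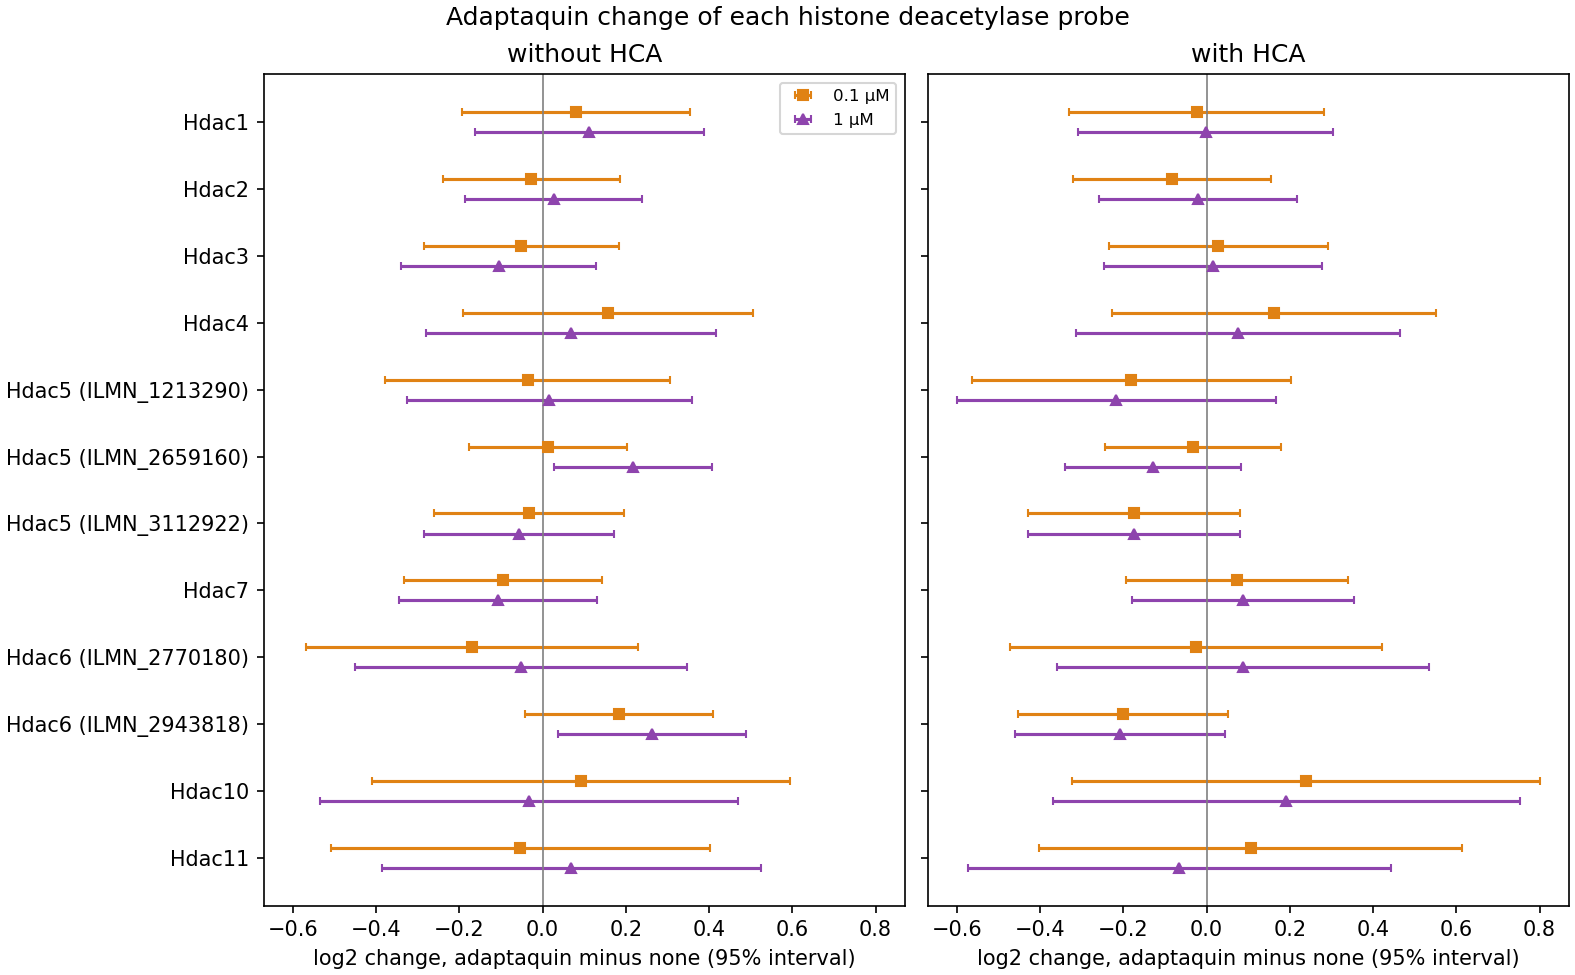
Change of each member probe with 0.1 or 1 µM adaptaquin on the log2 scale, without and with HCA, with bars for the 95% interval. For Hdac1 the 4 values lie between -0.02 and 0.11, and every interval of that gene includes 0.

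The partners of the family were counted from lists, each gene by its brightest detected probe, in the averaged HCA change, where 9.82% of all probes were called and 17.8% with the block. Of 18 detected subunits of the Hdac1 and Hdac2 complexes, out of 24 listed, limma called 0, and 2 with the block, Ing2 and Mta3 (0.25 ± 0.15, limma, adjusted p = 0.35, blocked 0.0086), and the median change was -0.032 against -0.0056 for all probes. The members with the smallest p were Ing2, a SIN3 subunit that binds methylated histone H3, at 0.30 ± 0.11 (limma, adjusted p = 0.10, blocked 0.017), and Phf21a, a CoREST subunit, at -0.25 ± 0.094 (limma, adjusted p = 0.12). The scaffold Sin3a had a change of 0.0012 ± 0.055. Of the 2 detected of 5 subunits of the NCoR and SMRT complexes, Tbl1x, which helps exchange corepressors for coactivators, rose by 0.25 ± 0.065 (limma, adjusted p = 0.027), from a mean of 9.17 to 9.42, and Gps2 had a value of -0.18 ± 0.11.

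Of 14 detected partners of the class IIa enzymes, out of 17 listed, 1 rose. Of all probes 9.82% were called, and 17.8% with the block. The 1 that rose was Mef2b, a transcription factor bound by these enzymes, at 0.49 ± 0.12 (limma, adjusted p = 0.017). Its level was low, with a mean of 5.87 without HCA and 6.37 with it. The 14-3-3 protein Ywhae had 0.28 ± 0.094 (limma, adjusted p = 0.076, blocked 0.012). The list's median was 0.054, and 3 of its members were called with the block, the third being the kinase gene Sik1 (0.29 ± 0.21, limma, adjusted p = 0.46, blocked 0.038). Of 6 detected genes among Hdac6 substrates and partners, 0 were called and the median was 0.015, with Tuba4a at 0.19 ± 0.11 and the chaperone Hsp90aa1 at 0.30 ± 0.17. At single doses of HCA and in the adaptaquin comparisons, none of these partner lists had a call, with or without the block.

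The other enzymes that act on lysine acetylation were the sirtuins, which use NAD, and the acetyltransferases. Of 6 detected sirtuins 1 was called, and of all probes 9.82%. Sirt5, a mitochondrial desuccinylase, fell by 0.25 on the log2 scale (SE 0.061, limma, adjusted p = 0.019), from a mean of 8.80 to 8.55, and 0 of the 6 values were positive, with a median of -0.10. Sirt1 had a change of -0.00060 ± 0.067 and Sirt6 of -0.19 ± 0.11. Of 10 detected acetyltransferases, 0 were called, the median was 0.024, and Hat1, which acetylates newly made histones, had -0.15 ± 0.076 (limma, adjusted p = 0.27) and was called with the block (0.032). Kat8, which acetylates histone H4, had -0.11 ± 0.058.

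By Pearson correlation over the 17 arrays, among 8921 other genes, the genes most like Hdac1 were Ubtf, a factor of ribosomal RNA transcription (r = 0.95), Mt3, the brain metallothionein (r = 0.94), Spr (r = 0.94), Tprkb (r = 0.92) and Slc25a20 (r = 0.92). The most opposed were the activity-induced genes Fos (r = -0.96), Dusp1 (r = -0.95) and Npas4 (r = -0.94), with Rhbdd1 (r = -0.95) and the glycyl-tRNA synthetase gene Gars (r = -0.94). Since the arrays fall into 8 with and 9 without HCA, the pooled values span 2 separate sets of arrays, and within the HCA arrays alone r was nearer 0 for all 10 genes, such as 0.47 for Ubtf, -0.096 for Slc25a20, -0.63 for Fos and -0.85 for Dusp1. Among the relatives, r with Hdac1 over the 17 arrays ran from -0.72 for Hdac5 ILMN_3112922 to 0.54 for Hdac6 ILMN_2943818. Within the HCA arrays alone r was 0.45 for that Hdac5 probe, with the sign reversed, and 0.21 for that Hdac6 probe. The pooled values of the relatives thus also span 2 separate sets of arrays.

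Marker lists of other cells also held calls in the averaged HCA change, where 9.82% of all probes were called and 17.8% with the replicate block. Of 12 detected progenitor markers, 4 fell, among them Nes by 0.73 (SE 0.10), Vim by 0.46 and Top2a by 0.31 on the log2 scale, and 7 fell with the block. The mean log2 level of the progenitor list was 9.56 to 9.95 with HCA and 9.81 to 10.32 without it, which overlap when all arrays are pooled. Among arrays of the same replicate number they did not overlap, at 9.56 to 9.61 against 9.81 to 9.89 for number 1, at 9.92 to 9.95 against 10.08 to 10.32 for number 2 and at 9.78 to 9.79 against 9.92 to 10.09 for number 3. The progenitor level was thus lower with HCA within every replicate number, as Hdac1 was, and its part in the Hdac1 difference was not tested.

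Of 9 detected astrocyte markers, 5 fell, 6 with the block, among them Fabp7 by 0.51 and Slc1a3 by 0.44, and Slc1a2 rose by 2.10. Some of these levels were low. Fabp7 had a mean of 6.17 without HCA and 5.66 with it, and was detected on 13 arrays. Slc1a2 had a mean of 5.97 without HCA and 8.07 with it, and none of its probes was detected on more than 14 arrays. Aqp4 was detected on 11 arrays and Gfap on 3. The astrocyte list level was 7.94 to 8.18 with HCA and 7.92 to 8.30 without it, overlapping within each replicate number too. That level includes the rise of Slc1a2. The list's median change was -0.40, against -0.21 for the progenitor list, and 2 of its 9 values were positive. S100b was detected on 0 arrays. Of 5 oligodendrocyte markers 2 fell, Olig1 and Cnp, and with the block Mbp was called as higher (0.18 ± 0.075, limma, adjusted p = 0.15, blocked 0.041). That list was lower with HCA within replicate numbers 2 and 3 and overlapped within number 1. Of 10 detected neuron markers 0 were called, and 1, Syt1, with the block (0.23 ± 0.077, limma, adjusted p = 0.071, blocked 0.027). Of 6 microglial markers 0 were called, with and without the block, and of 3 vessel and fibroblast markers 1 rose, Dcn, by 0.49 (limma, adjusted p = 0.0047). The part of these cells in the Hdac1 difference was not tested either.

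**Figure D4:**
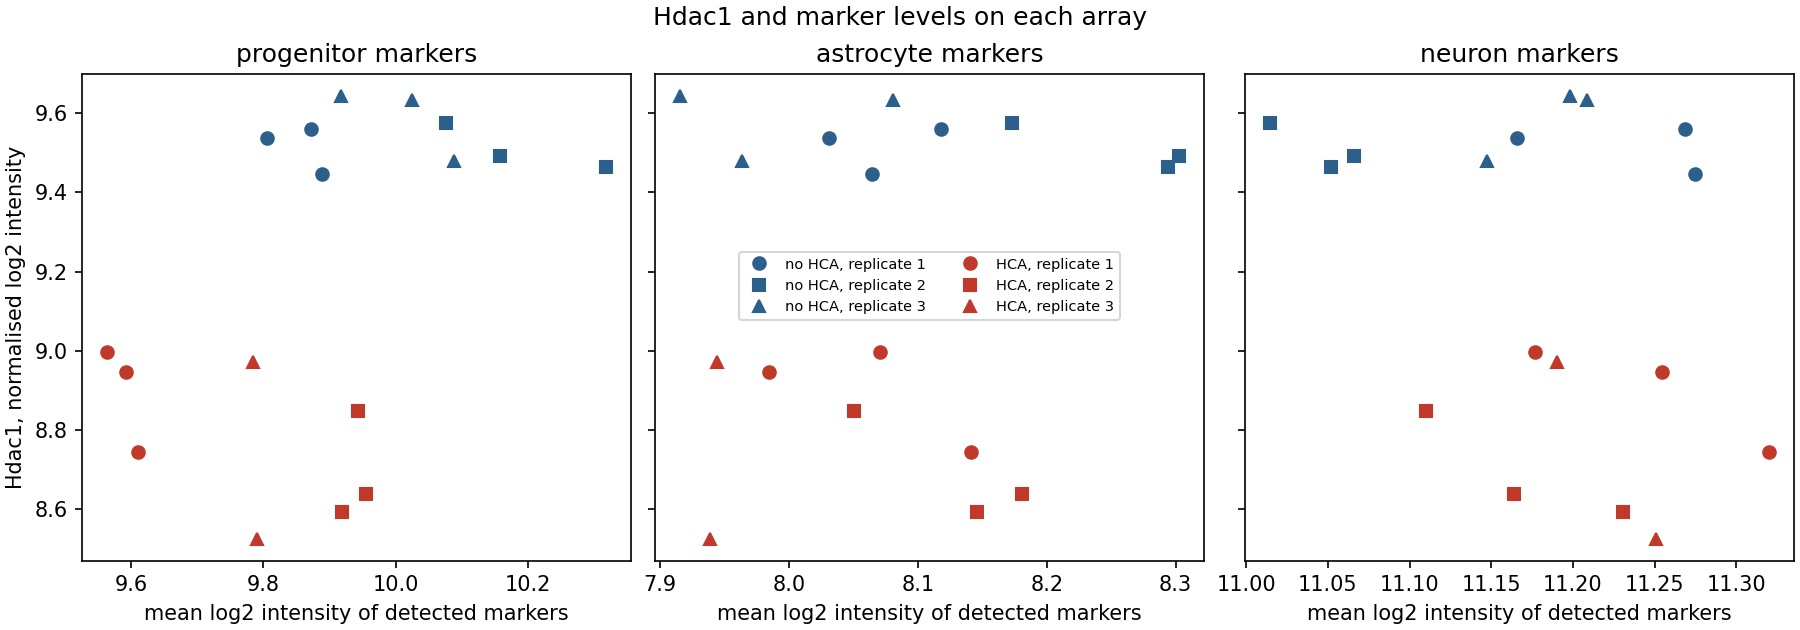
Hdac1 log2 value on each of the 17 arrays against the mean log2 level of progenitor, astrocyte and neuron markers, with arrays with HCA in red and without it in blue, and a symbol for each replicate number. Among arrays of 1 replicate number both Hdac1 and the progenitor level are lower with HCA, while over all arrays the progenitor levels overlap, between 9.56 and 9.95 with HCA and between 9.81 and 10.32 without it.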

How the data were processed

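RNA of 18 samples of cultured neurons was measured on Illumina bead arrays. Probe intensities deposited by the authors were not normalized between arrays and came with a detection p-value per probe and array. The authors also deposited a log2 table for 17 arrays, which equalled a quantile normalization of the intensities within 5e-09. The sources used here do not name scanner software or earlier filters. Per the labels, RNA was extracted with Trizol and cleaned on a column, and biotinylated cRNA was made with an Ambion kit. Symbols came from a platform table, in which 23978 probes had 1 symbol and 1719 had none.

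In R 4.3.3, neqc (limma 3.58.1) corrected intensities for background estimated through the detection p-values, added 16, quantile-normalized the 18 arrays and took log2. A probe stayed in when its detection p-value was under 0.01 on 2 or more of 17 arrays. A limma model with 6 group means (11 residual and 3.40 prior degrees of freedom) was fitted to all 12991 probes, each probe on its own. Tests were two-sided, with Benjamini-Hochberg adjustment over all probes within each of 10 contrasts and a threshold of 0.05. Intervals are at 95%. The number of arrays limits precision. Calculations were tested on simulated data.

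Replicate numbers paired the arrays. After group means were removed, all 40 pairs of arrays with the same number correlated above 0.1 (0.19 to 0.59), against -0.46 to 0.089 for 80 pairs with different numbers, so the blocked fit is given where it changes a call of a member or of a list, in counts where genes are not named.

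The members, gene lists and settings were chosen with earlier results of these data known. Every member probe is described. Named likeness genes were the 5 highest and 5 lowest. From the lists of partners and enzymes, called members were named, otherwise the 2 with the smallest p. Members called with the block and a few others, such as Sin3a, Sirt1 and Sirt6, were added. From the marker lists of cells, not every called member was named. Hdac1's HCA change was fitted with all other probes and enters the counts of calls, but no p-value is given for it, since it chose the family. RefSeq lists an Hdac1 pseudogene, and whether the probe also binds it was not tested. No coordinates are given, since no build is named with the arrays.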

Additional observations from a re-analysis of the deposited data

Results flagged for a closer look

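The third HCA-only array, left out because its title calls it an outlier, had an upper quartile of intensity of 241 and 40.9% of probes detected, both under those of the 17 arrays used. Of the 12 detected member probes, 7 lay above every untreated array on it, which is why they are given here. They read 8.76 for Hdac4, 7.75, 10.83 and 11.40 for the Hdac5 probes ILMN_1213290, ILMN_2659160 and ILMN_3112922, 8.08 and 7.76 for the Hdac6 probes ILMN_2770180 and ILMN_2943818, and 8.11 for Hdac11. On the same array 1 probe lay below every untreated array, that of Hdac1, at 9.24 against 9.45 to 9.49, and above the 8 HCA arrays used, which reached 9.00. With 1 array these are values without a test. How many of all probes lay above or below every untreated array on it was not counted. Nothing is therefore read from the counts of 7 and 1. No group held 4 arrays, so a single array far from its group was not looked for.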

How the results depend on the processing

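Calls among the 12 member probes were recomputed under 28 alternatives, 20 of which left out arrays. For HCA without adaptaquin the count of 1 (Hdac1) became 0 with the array titled as outlier included, 0 with median scaling and 0 with no filter on dim probes, and it was 0 to 1 when arrays were left out, with the call kept in 4 of 20. At 0.1 µM it was 0 to 1 when arrays were left out (0 without all arrays numbered 1 or 2). At 1 µM it was 0 with median scaling and 0 to 1 when arrays were left out (0 without all arrays of any one number). Averaged over the 3 doses the count of 2 became 5 with the replicate block and 1 with median scaling, and ranged from 1 to 3 when arrays were left out. In the settings that left out no array it ran from 1 to 5. Hdac5 ILMN_2659160 was called in 6 of 28 settings of that average, 2 of them leave-outs. Hdac5 ILMN_1213290 was called in 3 of 28, 2 of them leave-outs. In the adaptaquin comparisons and interactions the count of member probes was 0 under all 28. The cause of these changes was not tested, beyond the fewer arrays in the leave-outs.

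The averaged Hdac1 change lay between -0.85 and -0.61 and that of Hdac5 ILMN_3112922 between 0.26 and 0.35 in all settings, the 2-dose average included. Hdac5 lost its call with median scaling (0.057), without all arrays of any one number and over 2 doses. All-probe calls in that average ran from 161 to 2310. Median scaling moved the median of all probes by -0.101 for 1 µM adaptaquin with HCA. Leaving out an HCA-only array leaves 1, which is assumed to vary like the other groups. The array slide as a block was not run, since no header names a slide.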
